A study of Mus musculus with 4 samples.

Results

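The genes described here encode the muscle acetylcholine receptor and 2 proteins that place it at the synapse: Chrna1, Chrnb1, Chrnd, Chrng and Chrne, the subunits of the receptor, Musk, the receptor tyrosine kinase that starts postsynaptic assembly, and Rapsn, the scaffold that clusters receptors. They were chosen by name, as every probe set whose platform annotation gives 1 of these symbols alone, which found 9 probe sets for the 7 genes among 12394 named genes on the array. Of the 7 genes, 6 gave a signal above the floor used here on at least 1 array and 5 on all arrays. Chrng has 3 probe sets and each of the others 1. Chrnd and Chrng are neighbours on chromosome 1, Chrna1 and Rapsn lie on chromosome 2, Musk on chromosome 4, and Chrnb1 and Chrne on chromosome 11, per RefSeq on GRCm38.p6.

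The muscle receptor is a pentamer of alpha, beta and delta subunits with either a gamma or an epsilon subunit, and it opens a cation channel when acetylcholine binds at the alpha subunits. Before innervation and after denervation muscle carries the gamma form over the whole fibre, and as the synapse matures the epsilon form replaces it under the nerve terminal. Nerve-derived agrin binds Lrp4, which activates Musk, and rapsyn, the product of Rapsn, then holds the receptors in place. Transcription of the subunit genes is switched on in differentiating myoblasts by myogenic basic helix-loop-helix factors such as myogenin.

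The study took myogenic cells straight from the hind limb of 8- to 12-week-old C57BL/6 mice after injury by cardiotoxin, a snake toxin that destroys muscle fibres and leads to their regeneration. All samples came from injured muscle, taken 2, 3, 5 or 14 days after the injection, and there is no uninjured group. Each day was measured on 1 Affymetrix mouse 430A array, so the series holds 4 arrays, no replicates and no test. SM/C-2.6, an antibody to satellite cells, is named in the labels; the number of animals per sample is not.

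Values are MAS5 signals in arbitrary units, with all arrays brought to 1 trimmed mean. The pooled median of the scaled data, 43.0, serves as a floor, and signals under it have no order. Of 12394 genes, 6258, 6874, 7251 and 7439 were above it on days 2, 3, 5 and 14. Counts of genes above the floor are to be read against these numbers, which rise with the day. A gene is called higher or lower at 2-fold or more between 2 arrays, on size alone; where 1 of the signals lies under the floor the ratio is only a bound, written as at least N-fold, and where both do the gene was not measured there. As a yardstick of measurement error, the log2 ratios of different probe sets of 1 gene had an SD of 0.36 from day 2 to day 3, 0.37 from day 3 to day 5, 0.32 from day 5 to day 14 and 0.55 from day 2 to day 14. Differences between animals or between labelling reactions are not in this SD. Signals of different genes are not compared with each other, since each probe set has its own sensitivity.

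The label of the cells was checked on marker genes. Of 8 markers of myogenic cells, 7 were above the floor on day 2, all but Pax7, and 8 on each later day, with summed signals between 6557 and 12579. Of 9 markers of the mature fibre, which carries the synapse in the animal, 2 were above the floor on day 2, 4 on day 3 and 5 on days 5 and 14. They summed to 1032, 3643, 3822 and 2509 on the 4 days. Actn3 read 891, 2430, 2864 and 1489, and Atp2a1 67.4, 618, 646 and 519. The adult myosin genes Myh2, Myh4 and Myh7 were at the floor on every array, while Myh1, also an adult myosin gene, read 38.4, 389.7, 62.3 and 235. Of 8 Schwann cell and nerve markers on the array, 1, 2, 1 and 2 were above the floor on the 4 days in turn. Ngfr was above it on every array, at 69.2, 56.1, 138 and 122. Sox10 was above it on day 3 only (46.3) and Mbp on day 14 only (73.4). Of 7 fibroblast markers 3, 4, 5 and 6 were above the floor on the 4 days in turn, with Clec3b at the floor throughout, and they summed to 733, 1131, 5107 and 12072. Of 8 macrophage markers 3, 6, 7 and 7 were above it, with Itgam at the floor throughout, and they summed to 237, 629, 1686 and 1673. Of 6 endothelial markers none was above it on days 2 and 3, 1 on day 5 and 2 on day 14. The sums given for the other marker sets include signals under the floor, so they do not describe each marker. They also weigh bright probe sets most, such as Dpt among the fibroblast markers, at 1430 and 5877 on days 5 and 14. Tek read 15.3, 28.1, 85.5 and 214 and Kdr 59.1 on day 14, with Pecam1 and Cdh5 at the floor on every array. For Gapdh, the signal at the transcript's 3' end divided by that at its 5' end, which reflects how intact the RNA was, came to 2.17, 1.88, 2.87 and 2.84 in the same order, and for Actb to 1.80, 2.20, 2.19 and 2.14. These values moved with the day of collection, and their part in the results below was not tested. In RNA from a population of cells, fewer cells that express a gene and less RNA per cell cannot be told apart.

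**Figure D1:**
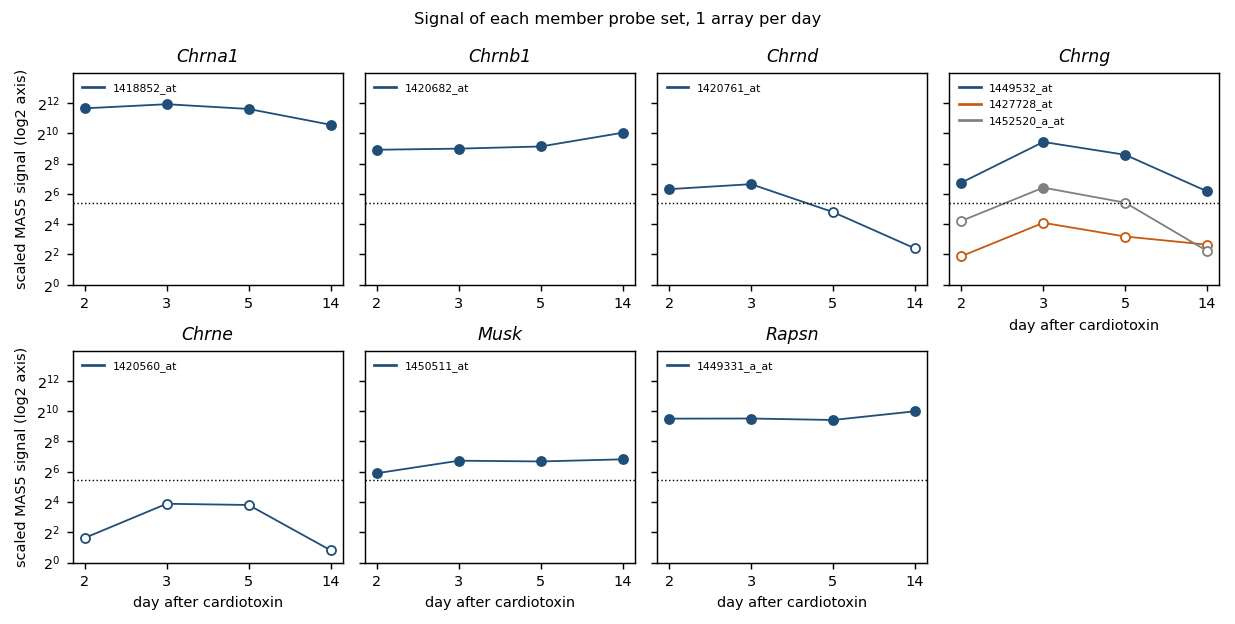
Scaled MAS5 signal (log2 axis) of the 9 probe sets by day after cardiotoxin, 1 array per day, with days evenly spaced; the dotted line is the floor at 43.0 and open circles lie under it. Chrng peaks on day 3 at 688, Chrna1 drops to 1515 on day 14, Chrnb1 reaches 1050.3 there, and Chrne stays under the floor.

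The gamma subunit gene Chrng, whose product is the fetal subunit of the receptor, had the widest measured range of the members above the floor on all arrays. Its brightest probe set gave 107, 688, 383 and 71.8 for days 2, 3, 5 and 14. It was high on days 3 and 5 and low on days 2 and 14, and the highest signal was 9.59-fold the lowest. A second probe set read 18.5, 85.1, 42.8 and 4.69 and was above the floor on day 3 only. The third read between 3.69 and 17.0 and stayed under the floor throughout, so it gives no order of days. The epsilon subunit gene Chrne, the adult counterpart, read 3.09, 14.7, 13.9 and 1.76 on the 4 days. All of these lie under the floor, so Chrne was not measured in any comparison, and no change from the gamma to the epsilon gene was detectable on these arrays.

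The sequence before the transcription start is shown for Chrng, which was called on day 3, for Chrna1, called on day 14, and for Chrne, which was never above the floor. Capitals mark the E-box CANNTG, the element of myogenic basic helix-loop-helix factors, which reads as CANNTG on both strands, and the N-box CCGGAA, an Ets site known from synaptic genes, searched on both strands. Each run is the 250 bases before the start, 5' to 3' on the gene's strand, from RefSeq on GRCm38.p6: chr1:87205561-87205810 on the plus strand for Chrng, chr2:73580339-73580588 on the minus strand for Chrna1 and chr11:70619195-70619444 on the minus strand for Chrne.
Chrng: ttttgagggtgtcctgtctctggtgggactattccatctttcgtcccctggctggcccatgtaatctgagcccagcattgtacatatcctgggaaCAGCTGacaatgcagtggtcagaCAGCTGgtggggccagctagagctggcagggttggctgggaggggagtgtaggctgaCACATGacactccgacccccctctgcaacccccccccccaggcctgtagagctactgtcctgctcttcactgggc
Chrna1: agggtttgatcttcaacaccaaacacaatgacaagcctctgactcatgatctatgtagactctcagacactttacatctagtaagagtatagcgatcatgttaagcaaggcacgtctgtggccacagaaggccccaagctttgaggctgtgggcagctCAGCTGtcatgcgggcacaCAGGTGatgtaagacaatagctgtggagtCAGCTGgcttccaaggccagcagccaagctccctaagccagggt
Chrne: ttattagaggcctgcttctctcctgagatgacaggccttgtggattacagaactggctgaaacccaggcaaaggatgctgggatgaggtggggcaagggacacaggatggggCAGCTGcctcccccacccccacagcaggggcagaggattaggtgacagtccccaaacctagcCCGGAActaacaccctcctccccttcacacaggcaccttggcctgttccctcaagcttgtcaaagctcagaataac

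Chrng and Chrna1 each hold 3 E-boxes in this window, 2 of them of the form CAGCTG, and no CCGGAA. In Chrng the CAGCTG copies begin 155 and 132 bases before the start, and in Chrna1 92 and 44 bases before it. Chrne holds 1 CAGCTG, 138 bases before the start, and 1 CCGGAA, 76 bases before it. Musk holds 3 E-boxes, 1 of them CAGCTG, and Chrnb1 3 E-boxes, none of this form. Of 32851 windows of the same length before RefSeq starts, 66.2% hold a CANNTG, 13.0% a CAGCTG, which is itself a CANNTG, and 12.0% a CCGGAA on either strand. The table matched 5 of the 7 genes, without Chrnd and Rapsn. A match is a description of the letters and not a binding site.

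The step from day 2 to day 3 addresses the onset of differentiation. Chrng was 6.43-fold higher on day 3, and it alone of 6 measured members was called, against 6.69% of all 6991 measured genes called higher and 8.50% called either way. Only 35 of those genes had a larger ratio. On the log2 scale the difference was 2.68, beside the 0.36 between probe sets of 1 gene, and the second Chrng probe set was at least 1.98-fold higher, with day 2 at the floor. Musk read 59.7 on day 2 and 106 on day 3, a log2 ratio of 0.83 and short of a call. Chrnd, the delta subunit gene, gave a log2 ratio of 0.33, Chrna1 0.27, Chrnb1 0.07 and Rapsn 0.01, all within the yardstick. With each array scaled to the median instead, the ratios of Chrnd, Chrna1, Chrnb1 and Rapsn took the opposite sign, at -0.17, -0.23, -0.43 and -0.49, so these 4 have no settled direction at this step.

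The alpha subunit gene Chrna1, whose product forms the binding site for acetylcholine, was already high on day 2. Its signals were 3211, 3873, 3117 and 1515 on days 2, 3, 5 and 14. The signals of days 2, 3 and 5 lay within 1.24-fold of each other, and day 14 stood below them. Chrng and Chrna1 therefore differed in their course. Within an array, where scaling cancels, the ratio of Chrng to Chrna1 was 5.33-fold higher on day 3 than on day 2. It was 1.45-fold lower on day 5 than on day 3 and 2.59-fold lower on day 14 than on day 5.

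The delta subunit gene Chrnd had signals of 79.3, 99.7, 27.8 and 5.27. It was above the floor on days 2 and 3 and under it on days 5 and 14. Against day 3, day 5 was at least 2.32-fold lower, and of 6 measured members Chrnd alone was called at this step, where 5.97% of 7523 measured genes were called lower and 17.6% either way. The call was lost with a floor of 100, above all 4 Chrnd signals. Chrng was 1.80-fold lower on day 5 than on day 3, with a log2 ratio of -0.85 beside the yardstick of 0.37. It became a call when each array was scaled to the median, at -1.08. The other members gave log2 ratios of -0.31 for Chrna1, 0.14 for Chrnb1, -0.05 for Musk and -0.10 for Rapsn, all within the yardstick. Their sign, other than that of Chrna1, depended on the scaling.

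**Figure D2:**
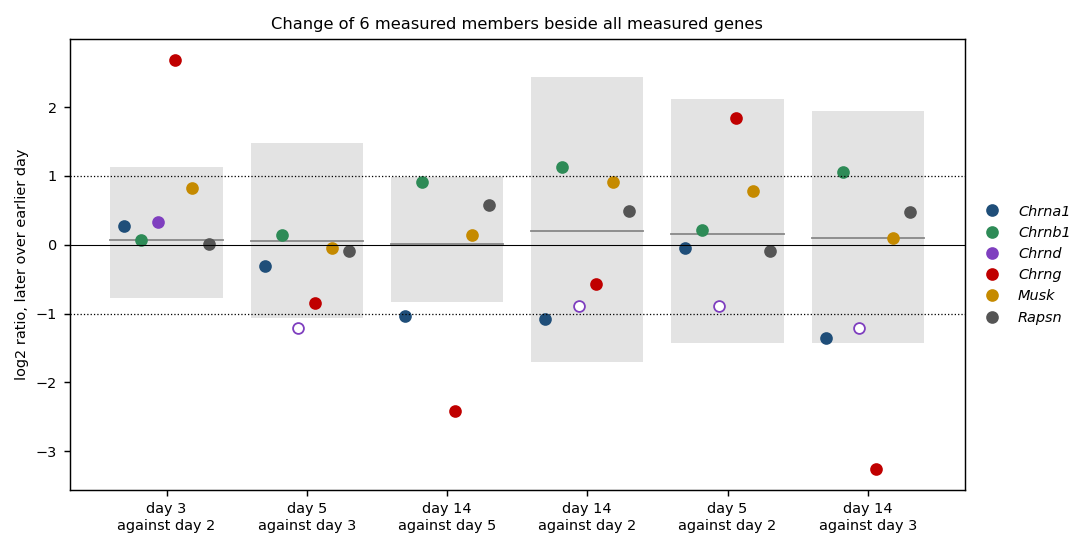
Log2 ratio, later over earlier day, of the 6 measured members in 6 comparisons; filled circles are measured on both arrays, open circles are bounds, grey bars span the 5th to 95th percentile of all measured genes with their median, and dotted lines mark 2-fold. Chrng lies above the bar on day 3 against day 2 (2.68) and below it on day 14 against day 5 (-2.41) and day 14 against day 3 (-3.26). The comparisons share arrays.

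Day 14 against day 5 was the consecutive step with the widest spread among the members. Chrng was 5.33-fold lower than on day 5 and Chrna1 2.06-fold lower, both called, against 3.10% of 7709 measured genes called lower and 7.91% called either way. No member was called higher, where 4.81% of genes were. Only 12 genes had a smaller ratio than Chrng and 210 a smaller one than Chrna1. Chrnb1, the beta subunit gene, went the other way, from 559.9 to 1050.3, a log2 ratio of 0.91 that fell short of a call while 5.73% of genes had a larger one. Rapsn read 682 and 1016, a log2 ratio of 0.58, and Musk 102 and 113, a log2 ratio of 0.14 and within the yardstick of 0.32. Chrnd was at the floor on both days. The signs of these 5 ratios were the same under all 7 alternatives that can move a ratio, with ranges of -2.66 to -1.94 for Chrng, -1.15 to -1.03 for Chrna1, 0.80 to 0.97 for Chrnb1, 0.47 to 0.62 for Rapsn and 0.03 to 0.14 for Musk. The same step holds the fibroblast markers' difference from 5107 to 12072 in summed signal, whose part in these ratios was not tested.

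Across the 4 days Chrnb1 read 482, 507, 559.9 and 1050.3. The first 3 days lay within 1.16-fold, and day 14 stood above them. Within an array the ratio of Chrnb1 to Chrna1 was 3.86-fold higher on day 14 than on day 5, and that of Chrng to Chrnb1 10.0-fold lower. Rapsn followed Chrnb1 more closely: it read 726, 729.9, 682 and 1016, and its ratio to Chrnb1 was 1.26-fold lower on day 14 than on day 5. Its ratio to Chrna1 was 3.07-fold higher. Musk read 59.7, 106, 102 and 113. Its later 3 days lay within 1.10-fold of each other, and none of its ratios was called. Against day 2 its log2 ratios were 0.83, 0.78 and 0.92 on days 3, 5 and 14. At their lowest under other settings they were 0.08, 0.03 and 0.08. The lowest values of days 3 and 5 came with a floor of 100, above the day 2 signal, and are only bounds. That of day 14 came with median scaling and was measured on both arrays, so a lower level on day 2 is not settled.

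From the first day to the last, 2 of 6 measured members were called on day 14, where 37.6% of 7668 measured genes were called. Chrnb1 was 2.18-fold higher, against 22.8% of genes called higher, and Chrna1 2.12-fold lower, against 14.8% called lower. Both calls depended on the scaling: with each array scaled to the median, Chrnb1 gave a log2 ratio of 0.28, and with quantile normalization Chrna1 gave -0.90. Musk gave 0.92, Rapsn 0.49, Chrng -0.58 and Chrnd at least 1.85-fold lower, none a call. Under median scaling the ratio of Rapsn was -0.35. Chrng became a call under median scaling and quantile normalization (-1.42 and -1.06), and Chrnd under both of these, a lower floor and log2(signal + 16). The order of the days for Chrng was thus 3, 5, 2 and 14, with days 2 and 14 apart by about the yardstick of 0.55.

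Against its own peak on day 3, Chrng on day 14 had a log2 ratio of -3.26, and 18 of 7774 measured genes had a smaller one. In this comparison 4 of 6 measured members were called, where 27.9% of genes were called either way. Chrng was 9.59-fold, Chrna1 2.56-fold and Chrnd at least 2.32-fold lower, where 11.5% of genes were called lower, and Chrnb1 was 2.07-fold higher, where 16.3% were called higher. Median scaling lost the call of Chrnb1 (0.71), and a floor of 100 that of Chrnd. For day 5 against day 2, Chrng alone was called, at 3.57-fold higher, where 19.8% of 7445 genes were called higher, 11.4% lower and 31.1% either way. Chrnd, at least 1.85-fold lower, became a second call under quantile normalization, median scaling, the lower floor and log2(signal + 16). These comparisons share arrays with those above, so a chance value on an array enters several of them.

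Muscle differentiation genes were set beside the receptor genes. Of 7 such genes, 6 were called higher on day 3 than on day 2 and none lower, against 6.69% of all genes higher. Their median log2 ratio was 3.89, against 0.06 over all genes. On day 5 against day 3, 4 were called lower and none higher, against 5.97% of all genes lower. The median there was -1.08, again against 0.06. Myog, which encodes myogenin, read 261, 3876, 1839 and 1835 over the 4 days, and Acta1, skeletal alpha-actin, 114, 3858, 1318 and 679. Chrng was highest on day 3, as were Myog, Acta1, Mymk and Myh3, while Ckm and Mef2c were nearly as high on day 5 (97.5% and 97.7% of their day 3 signals) and Des was highest on day 5. The ratio of Chrng to Myog within an array was 2.31-fold lower on day 3 than on day 2 and 5.32-fold lower on day 14 than on day 5. On day 14 Chrng stood at 10.4% of its highest array, against 47.3% for Myog, 36.2% for Mymk, the fusion protein myomaker, and 17.6% for Acta1. Embryonic myosin Myh3 stood at 3.64%. Chrna1 had no such peak, at 82.9% of its highest signal on day 2, where Myog was at 6.73%.

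**Figure D3:**
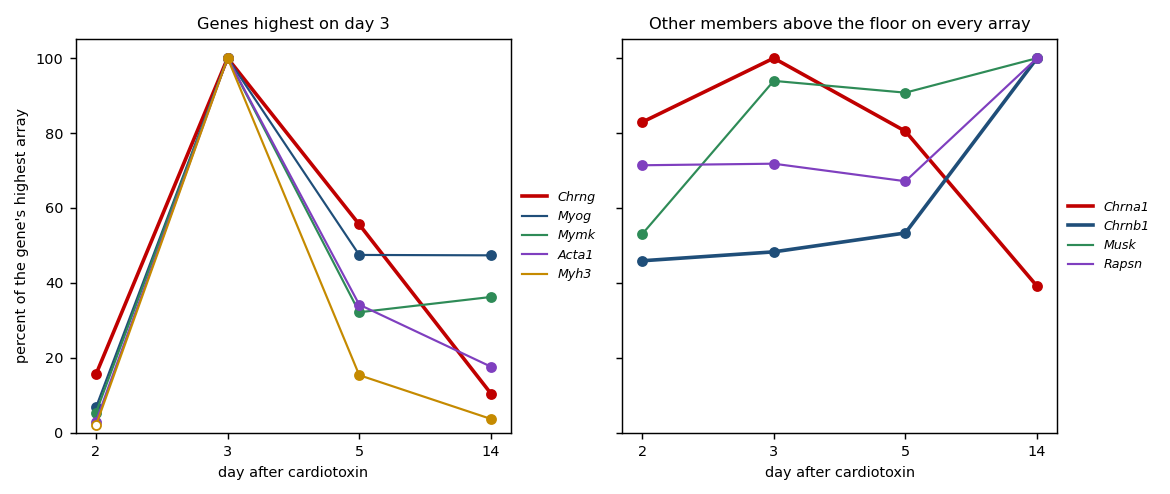
Signal as a percent of each gene's own highest array by day, 1 array per day, for Chrng with 4 differentiation genes that peak on day 3 (left) and for the 4 other members above the floor on every array (right); an open circle is a value at the floor, and days are evenly spaced. Chrng, Myog, Mymk, Acta1 and Myh3 are highest on day 3, Chrna1 is at 39.1% on day 14, and Chrnb1, Musk and Rapsn are highest on day 14.

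Profiles over the 4 arrays were compared by the root mean square (RMS) difference of log2 signals centred on each gene's mean, among 2758 genes for Chrng, Chrna1 and Chrnb1. The genes most like Chrng were Ttn, the sarcomeric protein titin (0.24), Dclk1, a microtubule-binding kinase (0.39), and Nes, the intermediate filament nestin of myoblasts and synapses (0.44), which also stands in the scaffold list below. Ttn read 156, 1093, 534 and 154 over the days. Those most like Chrna1 were Popdc3, a cyclic AMP-binding membrane protein of muscle (0.04), the DNA glycosylase Mpg (0.04) and Opn3 (0.04), and those most like Chrnb1 were Stat6 (0.04), Grasp (0.04) and Mknk1 (0.06). For Musk they were Pcyt1a, Tmem189 and Rit1 (0.08 each), for Rapsn Dedd2 (0.19), Trim11 (0.20) and Kmt2e (0.21), and for Chrnd, with days 5 and 14 at the floor, Lmnb1 (0.02), Immt and Letm1 (0.04 each). The genes compared had to range over at least 1 log2 unit. Musk (1.89-fold) and Rapsn (1.49-fold) ranged less than that, so genes with a range like theirs were left out. With 4 points many genes come close to any profile, so the match is a description. No profile came as near to Chrng as the nearest did to Chrna1 or Chrnb1. The distance is not scaled to a gene's range, which was 9.59-fold for Chrng, 2.56-fold for Chrna1 and 2.18-fold for Chrnb1. The distances therefore do not rank the members.

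Partners of the receptor were read from lists by role. Of 15 genes of agrin and Musk signalling on the array, all were above the floor at least once. None of 14 measured was called on day 3 (median log2 ratio 0.07), 3 of 15 were called higher and none lower on day 5 (median 0.05), and none of 14 on day 14 against day 5 (median 0.11), with medians over all genes of 0.06, 0.06 and 0.01. Over all genes 6.69% were called higher and 1.80% lower on day 3, 11.6% and 5.97% on day 5 and 4.81% and 3.10% on day 14 against day 5, and the counts of every partner list are to be read against these shares. Agrn, the agrin gene, read 50.3, 87.3, 286 and 306 over the days, 3.27-fold higher on day 5 than on day 3. The other 2 were Fyn, a Src family kinase (2.43-fold), and Pdzrn3, an E3 ubiquitin ligase that lowers Musk at the cell surface (4.18-fold). Lrp4, the agrin receptor, read 41.8, 48.4, 32.7 and 23.8 and was above the floor on day 3 only. Agrn was thus higher on the later days, while Lrp4 stayed near the floor. Besides the form that nerve releases at the synapse there is a basement membrane form of agrin, and the 2 were not separated here.

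Of 12 transcriptional regulators of the receptor genes that were above the floor at least once, 11 were measured on day 3 against day 2, with 2 called higher and 1 lower (median log2 ratio 0.32). Myog was 14.9-fold higher and Erbb3, a neuregulin receptor, at least 5.94-fold higher. Erbb3 read 21.3, 255, 77.7 and 58.2, so it was highest on day 3 like Chrng. Gabpb1, which encodes a subunit of the N-box factor GABP, was 2.91-fold lower, although its other probe set gave a log2 ratio of 0.15. Its partner Gabpa read between 271 and 359 on all arrays. On day 5, 3 of 12 were called lower, Myog (2.11-fold), Myod1 (2.81-fold) and Erbb3 (3.28-fold), and 1 higher, Myf5 (2.09-fold), with a median of 0.23. On day 14 against day 5, Myf5 alone was called, 2.13-fold higher (median -0.09), and no gene of the list was called higher with the values as deposited or with median scaling. Myf6, Hdac9, Dach2, Etv4, Etv5, Erbb4 and Camk2b were at the floor on every array.

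The postsynaptic scaffold, basal lamina and channel list had 18 genes on the array, of which Ache, the acetylcholinesterase gene, Colq, its collagen tail, Dtna and Sntb1 were at the floor on every array. On day 3, 3 of 12 measured were called higher and none lower (median 0.72): Nes (3.29-fold), the nuclear envelope protein Syne1 (3.77-fold, while its other probe set gave a log2 ratio of 0.77) and the laminin chain Lama5 (2.32-fold). On day 5, 4 of 14 were called higher and none lower (median 0.38): the laminin chain Lama4 (at least 6.00-fold), Sntb2 (at least 3.29-fold), Nid2 (2.43-fold) and Dmd, which encodes dystrophin (at least 2.07-fold, with another probe set at 0.76 on the log2 scale). On day 14 against day 5, 2 of 14 were called higher, Lamb2, the laminin beta chain of the synaptic cleft (3.36-fold), and Dmd (2.98-fold), and Nes was 3.31-fold lower (median -0.01). Over the whole course 9 of 14 were called higher and 1 lower (median 1.51, against 0.20 over all genes), where 22.8% of all genes were called higher and 14.8% lower. Utrn, the synaptic relative of dystrophin, was 2.93-fold, Dag1, dystroglycan, 3.46-fold and Lamb2 at least 8.48-fold higher, and Col13a1, a collagen of the muscle synapse, at least 3.96-fold lower. With median scaling this median was 0.67, with 5 higher and 2 lower. Fibroblasts and other matrix-producing cells also express laminins and Nid2. The fibroblast markers summed to 733, 1131, 5107 and 12072 on the 4 days, with Dpt alone at 32.5, 70.7, 1430 and 5877. Their part in the differences of this list was not tested.

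Genes of receptor assembly in the endoplasmic reticulum differed little between consecutive days, apart from Unc50. Of 6 measured, none was called on day 3 (median log2 ratio -0.09), Unc50, a Golgi protein whose worm relative is needed for nicotinic receptor transport, was called higher on day 5 (3.05-fold, while another of its probe sets gave a log2 ratio of 0.20), and none on day 14 against day 5 (median -0.09). On day 14 against day 2, Unc50 alone was called, 2.94-fold higher (median 0.25), where 22.8% of all genes were called higher and 14.8% lower. The 3 probe sets of Unc50 gave log2 ratios from 0.16 to 1.56 there, with 1 of them past 2-fold. Short of a call, Calr was 1.79-fold higher and Rer1 1.82-fold lower. With median scaling none was called higher and 2 of 6 lower, with a median of -0.59 beside -0.57 over all genes. The chaperone Canx, calnexin, read between 1863 and 2417. Of 9 neuronal nicotinic subunit genes on the array, from Chrna2 to Chrnb4, none was above the floor on any array, with signals from 1.17 to 36.1. Of the nicotinic receptor genes on the array, only Chrna1, Chrnb1 and Chrng were thus above the floor on every array, and Chrnd on days 2 and 3.

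**Figure D4:**
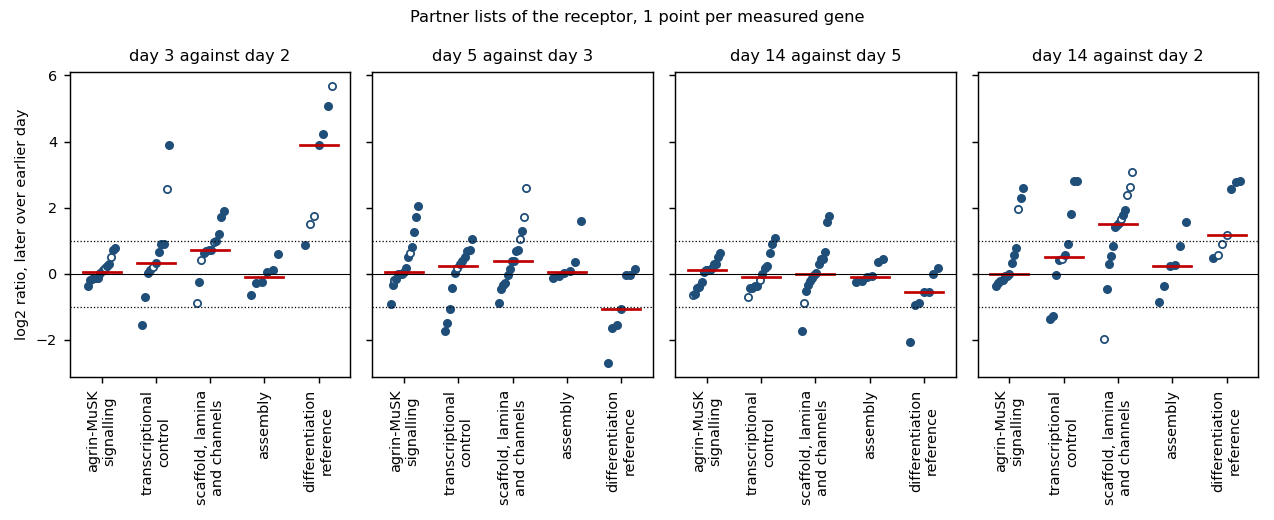
Log2 ratio, later over earlier day, of each measured gene in 5 partner lists for 4 comparisons; filled circles are measured on both arrays, open circles are bounds, red lines are medians and dotted lines mark 2-fold. The differentiation genes lie highest on day 3 against day 2 (median 3.89) and the scaffold list on day 14 against day 2 (median 1.51).

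**Figure D5:**
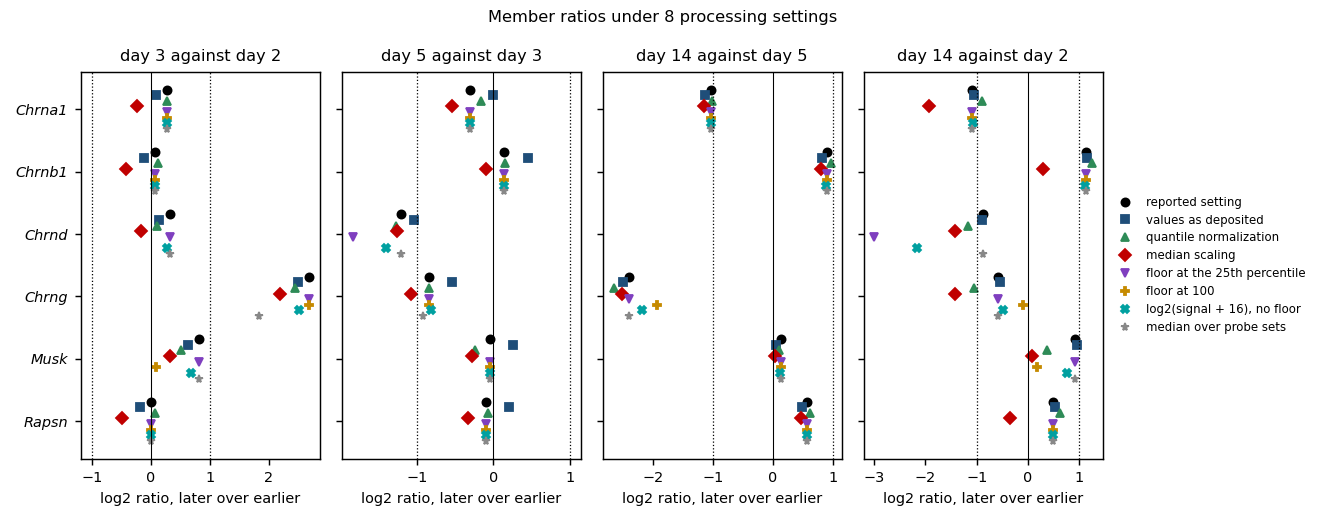
Log2 ratio of the 6 measured members under the reported setting (black circles) and 7 alternatives, for 4 comparisons; dotted lines mark 2-fold and an absent point is a gene not measured under that setting. Chrng lies between 1.84 and 2.68 on day 3 against day 2 and between -2.66 and -1.94 on day 14 against day 5, while Rapsn and Chrnb1 change sign on day 3 against day 2 under median scaling.

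The settings plot shows which of these differences rest on the scaling. Chrng on day 3 against day 2 and Chrng and Chrna1 on day 14 against day 5 were past 2-fold under all 8 settings that move a ratio. Median scaling shifts the median of all genes from 0.06 to -0.41 between days 2 and 3, from 0.06 to -0.16 between days 3 and 5 and from 0.20 to -0.57 between days 2 and 14, and single ratios move with it.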

How the data were processed

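RNA from 4 samples, 1 per day, was labelled with biotin by an assay for small samples and hybridised to Affymetrix mouse 430A arrays, per the labels' protocols. The authors deposited linear signal intensities, 1 per probe set in each sample, made with MAS5 per the submitters' processing notes; its settings and scaling target are not stated in the sources used, and detection calls were not used here. MAS5 values near 0 are unreliable, hence the floor.

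All arrays were brought to 1 trimmed mean, with 2% cut at each end (factors 0.997, 1.13, 0.917 and 0.976 for days 2, 3, 5 and 14), floored at the pooled median and log2-transformed (Python 3.11.15, pandas 2.3.3). Of 22690 probe sets, 20393 had 1 symbol, 691 several and 1606 none; no symbol changed through RefSeq (GRCm38.p6, 20364 matched). Each gene is represented by its brightest probe set on the mean log2 scale. Named genes are all members, the called members of 6 partner lists with a few others, and the 3 genes of most like profile per member, over genes above the floor on as many arrays with a range of at least 1 log2 unit. Members and lists were chosen with earlier results of these data known. The computation was tested on simulated data. 9 alternatives were tried. The number of arrays limits the precision.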

Additional observations from a re-analysis of the deposited data

How the results depend on the processing

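There is 1 array per day, so no replicate could be left out and no error between samples can be given. No paired analysis was possible because each group holds 1 sample and no test was made. The number of members called was recomputed under 9 alternatives. Of 1 call on day 3 against day 2, 8 of 9 settings gave 1 and a call at 1.5-fold gave 2 (adding Musk). For day 5 against day 3 (1 call) median scaling and a call at 1.5-fold gave 2, each with Chrng lower beside Chrnd, and a floor of 100 or a call at 3-fold gave 0. For day 14 against day 5 (2 calls) a call at 3-fold gave 1, Chrng, and the others 2 or 3. For day 14 against day 2 (2 calls) a call at 1.5-fold gave 4 and at 3-fold 0. Quantile normalization, median scaling, a lower floor and log2(signal + 16) gave 3 each, all with Chrnd lower. Quantile normalization and median scaling added Chrng lower, and lost Chrna1 and Chrnb1 respectively. None of the called ratios changed sign. The split of all calls into higher and lower also moved with the scaling: for day 3 against day 2 it was 468 and 126, with values as deposited 320 and 288 and with median scaling 223 and 846; for day 5 against day 3, 874 and 449, 1381 and 199, and 588 and 846; for day 14 against day 5, 371 and 239, 319 and 313, and 281 and 301; for day 14 against day 2, 1751 and 1134, 1797 and 1091, and 841 and 2732. Signal over background limits Chrnd, Musk and Lrp4, which lie near the floor, and Chrne, which lies under it.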
